A study of Homo sapiens with 6 samples.

Results

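Toll-like receptors and their adaptors are represented here by 4 genes, the receptors TLR3 and TLR4 and the adaptors MYD88 and TICAM1, in HaCaT, a human keratinocyte line that grows without limit in culture. The 4 were picked by gene symbol from a table of 497 probe sets that the authors had selected on the difference between untreated and M1-treated cells, out of 22119 probe sets on the value table. Each gene had 1 probe set in that table. Because the members were chosen from genes already selected on the control against M1 difference, their differences are given as a description, and no test of them is read as a result. The control group was 3 samples left untreated, and the M1 group was 3 samples given M1 protein, which Streptococcus pyogenes carries on its surface, at 5 µg/ml during 6 h. All 6 samples, called biological replicates by the submitters, came from the same cell line grown without serum and without calcium to near confluence, and were taken from 12 after a check of RNA integrity. The sources used here do not say if the cultures were grown apart, so the errors below measure the spread between these samples.

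Toll-like receptors are membrane proteins that recognise molecules of microbes and pass the signal inward through a shared cytoplasmic region, the TIR domain, which docks an adaptor with a TIR domain of its own. TLR4 sits at the cell surface, binds bacterial lipopolysaccharide together with its partner MD-2 (gene LY96), and can signal through both MYD88 and TICAM1. TLR3 sits in endosomes, binds the RNA duplexes that viruses make, and signals through TICAM1, also known as TRIF. MYD88 serves nearly all other receptors of the family and the interleukin-1 receptors, and leads by way of IRAK kinases to NF-kappaB. TICAM1 leads both to NF-kappaB and, through the kinase TBK1, to interferon regulatory factors and type I interferon. Keratinocytes meet microbes at the body surface and are known to respond to several ligands of these receptors.

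The arrays gave a log2 RMA signal, a background-corrected and normalised brightness, for each probe set. The median signal was 6.99 to 7.01 on the control arrays and 6.93 to 6.96 on the M1 arrays. These medians lay close together, but every M1 array was below every control array. The effect of centring each array on its median is given below. Gene names were at hand only for the 497 selected probe sets, and a gene outside them has no value here. Of 8 keratinocyte markers, KRT17 and LAMB3 were in the table, at log2 signals of 8.12 ± 0.08 and 11.81 ± 0.05 in control (SD, n = 3 each). Both were higher with M1 protein, KRT17 at 9.23 ± 0.11 and LAMB3 at 12.56 ± 0.03 (SD, n = 3 each), which is 2.15-fold for KRT17 and a log2 difference of 0.75 ± 0.06 (SE) for LAMB3, near the differences of the adaptors below. They too were selected on this contrast. The table held 0 of 6 leukocyte, 0 of 5 fibroblast, 0 of 4 endothelial and 0 of 4 melanocyte markers, which gives no level for any of them. The part of these markers and of other cell types in the results was not tested.

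The promoter sequences of the members are shown because the receptors and the adaptors differ in base composition, and to place the motif matches of each gene. All 4 genes were matched by symbol to the RefSeq promoter table of build GRCh38.p14. A single annotated start per gene was used, although RefSeq lists 8 transcripts for MYD88, 4 for TICAM1 and 3 for TLR4. Any other starts of these genes were not searched. The lines below give the 250 bases before the annotated start of each gene, 5′ to 3′ on the gene's own strand, with every match to a searched motif in capitals. They lie at chr4:186068906-186069155 (plus strand) for TLR3, chr9:117704153-117704402 (plus strand) for TLR4, chr3:38138411-38138660 (plus strand) for MYD88 and chr19:4831713-4831962 (minus strand) for TICAM1.
TLR3: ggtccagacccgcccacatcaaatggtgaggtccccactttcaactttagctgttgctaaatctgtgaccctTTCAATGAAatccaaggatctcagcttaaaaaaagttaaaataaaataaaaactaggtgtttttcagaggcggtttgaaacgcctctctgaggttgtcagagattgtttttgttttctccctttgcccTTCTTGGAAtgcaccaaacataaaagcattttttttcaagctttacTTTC
TLR4: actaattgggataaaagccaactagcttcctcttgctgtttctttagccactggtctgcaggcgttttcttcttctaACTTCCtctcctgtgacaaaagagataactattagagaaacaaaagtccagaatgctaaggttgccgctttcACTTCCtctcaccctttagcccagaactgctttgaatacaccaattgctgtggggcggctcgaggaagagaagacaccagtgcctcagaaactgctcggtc
MYD88: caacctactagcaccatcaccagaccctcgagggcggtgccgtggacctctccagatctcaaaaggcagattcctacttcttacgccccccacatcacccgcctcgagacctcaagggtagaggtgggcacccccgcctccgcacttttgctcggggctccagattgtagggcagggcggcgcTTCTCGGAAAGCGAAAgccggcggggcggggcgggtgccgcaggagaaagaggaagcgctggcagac
TICAM1: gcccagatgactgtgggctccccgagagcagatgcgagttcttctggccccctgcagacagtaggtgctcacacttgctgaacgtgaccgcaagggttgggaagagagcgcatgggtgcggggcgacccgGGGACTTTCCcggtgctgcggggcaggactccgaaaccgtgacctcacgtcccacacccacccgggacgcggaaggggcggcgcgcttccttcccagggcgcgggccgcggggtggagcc

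The receptor promoters were poorer in G and C than those of the adaptors. G and C made up 39.2% of these bases in TLR3 and 46.4% in TLR4, against 64.4% in MYD88 and 69.2% in TICAM1. Over the same 250 bases, the median of 27305 promoters of the table was 58.0%. Their 5th and 95th percentiles were 34.0% and 78.0%, and all 4 genes lay between them. The dinucleotide CG occurred 3 times in TLR3 and 5 times in TLR4, against 19 times in MYD88 and 23 times in TICAM1, with a median of 11 over all promoters.

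The full window of 250 bases before to 50 after the start was searched on both strands for 6 motifs, chosen after the data were seen. A match to the 10-base kappaB motif, the site form known for NF-kappaB, was found only in TICAM1 among the members. It lay from base -120 to base -111, counted from the start, and 5.72% of all promoters hold such a match. A match to GAAANNGAAA, a core of the sites that interferon regulatory factors bind, was found in MYD88 and TLR3 and in 3.65% of all promoters. In MYD88 it lay from base -61 to base -52. In TLR3 it crossed the start, from base -4 to base 6, on the opposite strand, so that only its first 4 letters stand in capitals at the end of the TLR3 line. The 30 bases around that start, chr4:186069141-186069170, hold the whole match in capitals:
TLR3 start: tcaagctttacTTTCACTTTCgagagtgcc

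Matches to TTCNNNGAA, the palindrome bound by STAT factors and here called GAS, occurred at 2 positions in TLR3 and at 1 in MYD88, and 7.88% of all promoters hold at least 1. The MYD88 match spanned base -67 to base -59 and overlapped the GAAANNGAAA match by 3 bases. GGAAGT, a core of ETS factor sites, occurred at 2 positions in TLR4 and at 1 in TLR3, the latter after the start, and stands in 23.2% of all promoters. Neither TGANTCA, the AP-1 motif (7.76% of promoters), nor TGACGTCA, the CRE motif (1.98%), was found in the window of any member. A match is a run of letters and does not show that a factor binds there. The map of motif matches shows these positions for the 4 genes.

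**Figure D1:**
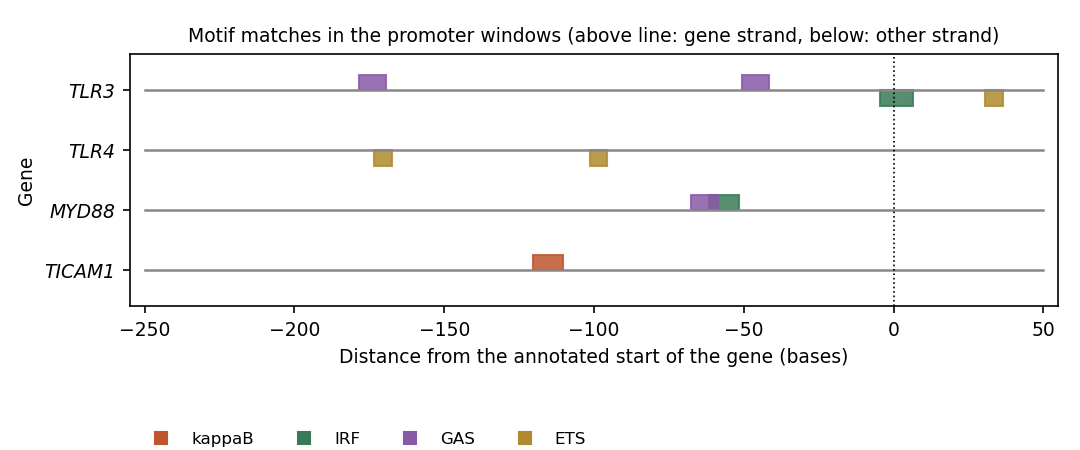
Positions of motif matches in the promoter windows of the 4 genes. The x axis is the distance in bases from the annotated start of each gene (dotted line), boxes above a line are on the gene's strand and boxes below it on the other strand; the palindrome GAS is drawn above. TICAM1 holds the only kappaB match, from base -120 to base -111, and MYD88 and TLR3 hold the IRF matches.

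TLR4 was the member with the largest difference, and it was higher with M1 protein. The authors' annotation places its probe set on chromosome 9, plus strand, from 120466460 to 120479768, in coordinates whose build is not named. The log2 signal of TLR4 was 7.21, 7.61 and 7.49 in control replicates 1, 2 and 3, and 9.10, 8.73 and 8.79 in M1 replicates 1, 2 and 3. The groups did not overlap, as in 46.5% of all probe sets, and the lowest M1 sample lay 1.12 above the highest control sample. Control replicate 1 was the lowest control and M1 replicate 1 the highest M1 sample. The means were 7.44 ± 0.21 and 8.88 ± 0.20 (SD, n = 3 each), a log2 difference of 1.44 ± 0.13 (SE) or 2.71-fold. The probe set is listed under a non-coding transcript of TLR4 and gives 1 value for the gene, so coding and non-coding transcripts cannot be told apart. The arrays measured whole cultures, in which a change in every cell and a change in some of the cells cannot be told apart either.

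TLR3 was the only member that was lower with M1 protein. Its probe set lies on chromosome 4, plus strand, from 186990306 to 187006255 in the authors' annotation. The log2 signal of TLR3 was 7.68, 7.55 and 7.56 in control replicates 1, 2 and 3, and 6.91, 6.80 and 6.82 in the M1 replicates in the same order. All M1 samples lay below all control samples, with a gap of 0.64 between the groups and a range of 0.13 within control and 0.12 within M1. The means were 7.59 ± 0.07 and 6.84 ± 0.06 (SD, n = 3 each), a log2 difference of -0.75 ± 0.07 (SE), so the signal was 1.68-fold lower. On the control arrays the TLR3 signal lay at the 59.1th to 61.1th percentile of the probe sets and on the M1 arrays at the 46.4th to 49.6th, so neither group was at the dim end of the array.

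Both adaptors were higher with M1 protein, by similar amounts. MYD88, on chromosome 3, plus strand, from 38179969 to 38184513 in the authors' annotation, had log2 signals of 8.15, 8.24 and 8.35 in control replicates 1 to 3 and 9.12, 9.22 and 9.16 in M1 replicates 1 to 3. The highest control sample lay 0.77 below the lowest M1 sample. Its means were 8.25 ± 0.10 and 9.17 ± 0.05 (SD, n = 3 each), a log2 difference of 0.92 ± 0.07 (SE) or 1.90-fold.

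TICAM1, on chromosome 19, minus strand, from 4815938 to 4831737 in the authors' annotation, had log2 signals of 8.28, 8.18 and 8.16 in control replicates 1 to 3 and 9.19, 9.25 and 9.21 in M1 replicates 1 to 3. It had the tightest replicates of the 4 genes, with a range of 0.12 in control and 0.06 with M1, and its groups were 0.91 apart. The means were 8.21 ± 0.06 and 9.22 ± 0.03 (SD, n = 3 each), a log2 difference of 1.01 ± 0.06 (SE) or 2.02-fold. The adaptor that TLR3 uses was thus higher in the same samples in which TLR3 was lower.

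**Figure D2:**
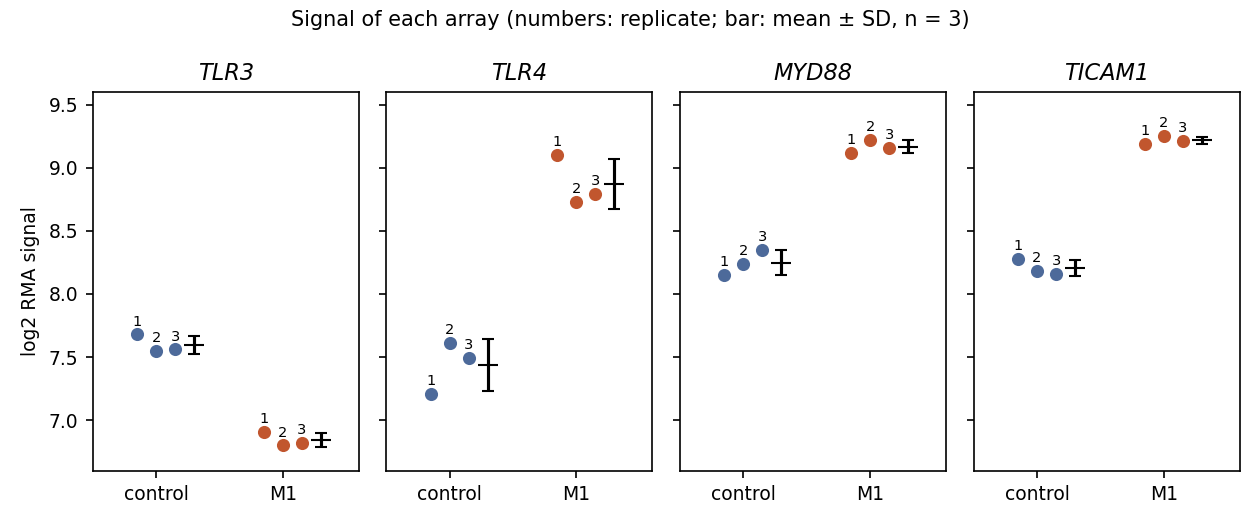
Log2 RMA signal (y axis, shared by the panels) of the 4 genes in each array of the control and M1 groups (x axis). Points are single arrays numbered by replicate and the bar beside them is the mean ± SD (n = 3). The groups do not overlap in any panel, as in 46.5% of all probe sets, and the genes were selected on this contrast. TLR3 is lower with M1 (6.84 against 7.59) and the other genes lie higher with M1, with the widest spread in TLR4.

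The spread among replicates differed between the members. The pooled within-group SD was 0.203 for TLR4, 0.0779 for MYD88, 0.0660 for TLR3 and 0.0507 for TICAM1, where the median of all probe sets was 0.102. TLR4 lay at the 88.8th percentile of this spread over all probe sets and TICAM1 at the 14.5th. TLR4 therefore had the largest difference and also the least certain one.

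In the distribution of all 22119 probe sets, with a median log2 difference of 0.0032, the 5th and 95th percentiles were -0.62 and 0.48, and all 4 genes lay outside them. TLR4 had the 150th largest positive difference, TICAM1 the 323rd and MYD88 the 388th, and TLR3 had the 661st largest negative difference. All 4 genes were called by limma at an adjusted p of 0.05 (Benjamini-Hochberg), as were 32.8% of all probe sets. The 3 higher genes stand against 11.6% of probe sets called higher, and TLR3 against 21.2% called lower. With each array centred on its median, the called probe sets were split into 3578 higher and 3670 lower in place of 2555 and 4690. The groups did not overlap in any of the 4 genes, nor in 46.5% of all probe sets. The selection used this same contrast, so nothing is read from these counts.

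**Figure D3:**
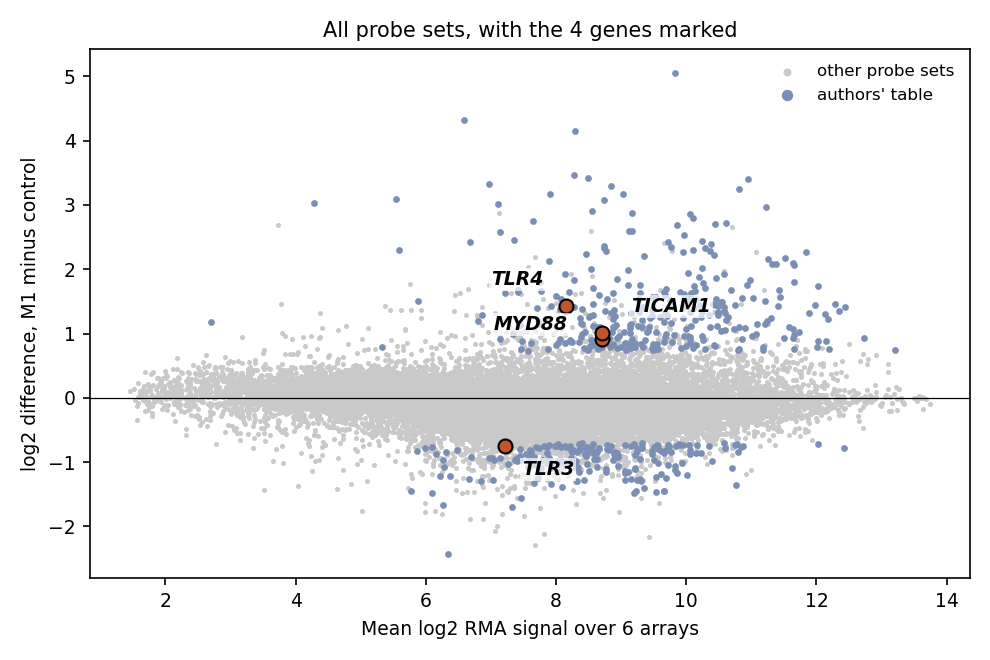
Log2 difference, M1 minus control (y axis), against the mean log2 RMA signal over 6 arrays (x axis), with a point for each of 22119 probe sets. Blue points are the 497 probe sets of the authors' table and the large marked points are TLR4 (1.44), TICAM1 (1.01), MYD88 (0.92) and TLR3 (-0.75), all in the middle of the signal range.

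The authors' deposited table, which holds 2.25% of all probe sets, gave ratios of mean unlogged signals, M1 over control, of 2.71 for TLR4, 2.02 for TICAM1, 1.89 for MYD88 and 0.594 for TLR3. Its SAM score relates the difference of a gene to the standard deviation of that gene, per the file header. The score in the authors' deposited table was 1.72 for TLR4, 1.43 for TICAM1, 1.26 for MYD88 and -1.04 for TLR3. These scores are not the difference divided by that standard deviation alone. For TLR3 the log2 difference was -0.75 and the pooled within-group SD 0.0660. In size, the scores of the 4 genes followed the order of their differences. TLR3 by its score and TLR4 by its p stood near the edge of what the authors listed, each by that measure only. The score of TLR3 compares with -1.0 for the lower probe set nearest 0, and 23 of the 194 lower probe sets in the authors' deposited table had a score nearer 0 than TLR3. The unadjusted p that the authors' deposited table lists was 0.00098 for TLR4, where the largest in the table was 0.000999 and only 2 probe sets had a larger one. The cut-off behind the table is not settled, since its header states an alpha of 0.01, its title a smaller p, and neither matches that largest value. The table marks none of its probe sets, members included, as cross-hybridising.

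The wider pathway was described from 11 lists of 130 genes in all. Of these, 24 were in the authors' table, the 4 members and 20 others, and 22 were higher and 2 lower, with a median log2 difference of 1.62. Among all selected probe sets, 303 were higher and 194 lower, with a median of 0.86. The 20 other genes were all called by limma (largest adjusted p 0.000284, Benjamini-Hochberg over all probe sets), which their selection on these samples nearly assured, so the counts are no independent evidence of direction.

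Among receptors and adaptors, TLR3 and TLR4 were 2 of 10 Toll-like receptors with a value and MYD88 and TICAM1 2 of 5 TIR adaptors. TLR2, which senses bacterial lipoproteins, and the adaptors TIRAP and TICAM2, which bridge TLR4 to MYD88 and TICAM1, had no value here. The same holds for all 10 receptor partners and trafficking genes. Among them are CD14 and LY96, the latter being the partner with which TLR4 binds lipopolysaccharide. Whether the partners of TLR4 were higher too cannot be seen from these names.

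Further downstream, 2 of 20 listed genes of IRAK, TRAF and TAK1 signalling were in the table, both higher. TRAF4 and MAPK14, which were not on this list, were in the table too. PELI1, a ubiquitin ligase that acts on IRAK proteins and in mice takes part in TICAM1 signalling, rose from 10.07 ± 0.08 to 11.82 ± 0.04 (SD, n = 3 each), 3.36-fold. MAP2K3, a kinase that activates p38, rose 1.82-fold, from 8.20 ± 0.03 to 9.06 ± 0.02 (SD, n = 3 each).

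Of 13 NF-kappaB subunits and IkappaB proteins, 4 were in the table and all rose. REL rose by 1.29 ± 0.08 and NFKB1, the precursor of p50, by 0.94 ± 0.07 on the log2 scale (SE). BCL3, a nuclear IkappaB protein, rose by 0.78 ± 0.06 and NFKB2, the precursor of p52, by 0.75 ± 0.05 (SE). The log2 difference of NFKB1 lay between those of the adaptors, with REL above both and BCL3 and NFKB2 below both. Each of the 4 was below those of the 8 target genes named next. For REL this was by less than the SE of the nearest target, IL36G (1.32 ± 0.09 SE).

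Of 15 negative regulators of the pathway, 5 were in the table and all rose, with a median log2 difference of 2.91. The other 10 had no value here, and the 5 were selected on this same difference. TNFAIP3, the ubiquitin-editing enzyme A20 that dampens NF-kappaB signalling, rose 10.6-fold from a log2 signal of 9.25 ± 0.07 to 12.66 ± 0.08 (SD, n = 3 each). DUSP1, a phosphatase of MAP kinases, rose by 2.96 ± 0.06 and ATF3, a repressor of inflammatory genes, by 2.59 ± 0.07 on the log2 scale (SE). IL1RL1, the receptor of interleukin-33, rose 7.50-fold, and SOCS3, an inhibitor of cytokine receptor signalling, rose 3.81-fold. IL1RL1 was also the only 1 of 9 genes of the interleukin-1 receptor family in the table. It signals through MYD88 in its membrane form, and its soluble form is a decoy, and the probe set gives 1 value for the gene.

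Of 13 cytokine and chemokine genes known as NF-kappaB targets, 8 were in the table and all rose, with a median log2 difference of 2.27. The neutrophil chemokine gene CXCL8 rose by 5.05 ± 0.14 on the log2 scale (SE), CCL20 by 4.33 ± 0.15 and CXCL1 by 3.33 ± 0.20. CSF2 rose by 2.30 ± 0.15, and the interleukin-1 family genes IL1B and IL1A by 2.24 ± 0.10 and 1.75 ± 0.07 (SE). The other members of the list in the table were CXCL3, 2.83-fold higher, and IL36G, 2.50-fold higher. The receptor that IL1A and IL1B bind signals through MYD88. CCL20, CXCL1, CXCL3 and CSF2 had mean control signals at the 18.4th percentile or lower, where folds are less certain, and the related sequences of CXCL1 and CXCL3 leave their split uncertain.

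On the antiviral arm the table held few genes. It held 0 of 9 interferon regulatory factors and 0 of 18 genes of type I interferon and its targets, which gives no level for them. Of 12 other sensors of nucleic acids and peptidoglycan, MAVS, the adaptor of cytosolic RNA sensors, was in the table and fell. Its log2 signal was 9.53, 9.39 and 9.39 in control replicates 1 to 3 and 8.70, 8.63 and 8.75 in M1 replicates 1 to 3, a log2 difference of -0.74 ± 0.07 (SE). TLR3 and MAVS, which serve the recognition of viral RNA in endosomes and in the cytosol, were thus the 2 lower genes of the 24. TICAM1, through which TLR3 signals, was higher, with a log2 difference of 1.01 ± 0.06 (SE). The genes of this arm in the table thus did not share a direction.

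**Figure D4:**
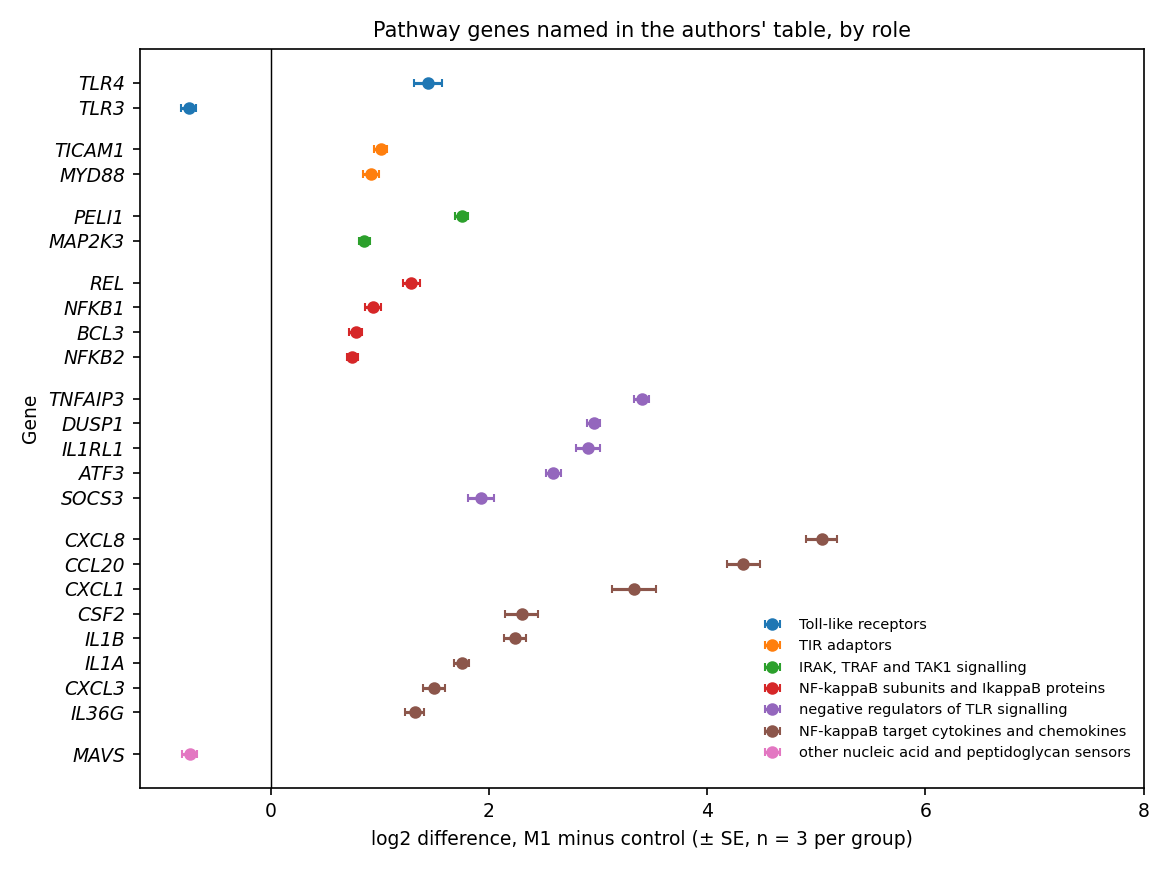
Log2 difference, M1 minus control (x axis, ± SE, n = 3 per group), of the 24 pathway genes that the authors' table names (y axis), coloured by role. TLR3 and MAVS are the only genes left of 0, the adaptors lie near 1, and the negative regulators and target chemokines reach 3.40 (TNFAIP3) and 5.05 (CXCL8).

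The authors' gene ontology annotation, looked at after the data were seen, puts the 4 genes together under 3 biological process terms. Innate immune response held 9 genes of the table, 7 higher and 2 lower. Beside the members these were IL1RL1, RNASE7, an antimicrobial ribonuclease of skin (log2 difference 2.28 ± 0.15 SE), CD55, a complement inhibitor (1.83 ± 0.07 SE), BCL10 and MAVS. Positive regulation of the I-kappaB kinase/NF-kappaB cascade held 13 genes, 11 higher and 2 lower, and positive regulation of interleukin-6 production held 6, of which 5 were higher. In each of the 3 terms the lower genes were TLR3 and, where annotated, MAVS.

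A further term, positive regulation of interferon-beta production, held 4 genes of the table and was shared by TLR3 and TLR4. TLR4 was the higher gene of the 4, and TLR3, MAVS and POLR3B were the lower ones. POLR3B, a subunit of RNA polymerase III, which can turn cytosolic DNA into a ligand of RNA sensors, fell from 9.97 ± 0.08 to 9.17 ± 0.06 (SD, n = 3 each), a log2 difference of -0.80 ± 0.07 (SE). This term was singled out after its values were seen. A related term, positive regulation of interferon-beta biosynthetic process, held only TLR3, TLR4 and TICAM1 and was split the other way, with 2 genes higher and 1 lower and a median log2 difference of 1.01.

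The named genes with the profile most like each member were ranked by the distance between log2 profiles over the 6 arrays, each profile centred on its control mean, among 490 genes. For TLR3 they were EFNA4, an ephrin ligand (log2 difference -0.72), LRRCC1 (-0.73) and GEMIN6 (-0.77), at distances of 0.0789 to 0.0861. For TLR4 they were the mitochondrial carrier gene SLC25A25 (1.40), MIR22HG (1.37) and DAPP1 (1.32), at 0.194 to 0.223, farther than for the other members. For MYD88 they were BCL10 (0.90), which carries immune receptor signals to NF-kappaB, the kinase gene CLK1 (0.92) and LIPG (0.94), at 0.107 to 0.115. For TICAM1 they were ETS2 (0.97), TRIM8 (0.95) and the hexokinase gene HK2 (1.02), at 0.0911 to 0.128. With 2 groups of 3 arrays, the distance mostly follows the size of the difference, and ranking by Pearson correlation named mostly other genes.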

How the data were processed

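RNA of 3 control and 3 M1 samples was hybridised to Affymetrix arrays, and groups and replicate numbers were taken from the sample titles. The submitters' processing notes name RMA and version 1.1.2 of Affymetrix Expression Console for the deposited log2 signals. RMA corrects for background, makes arrays comparable and merges the probes of a set, and tends to compress the differences of dim genes. Per the file headers, the authors' table adds a SAM score, a fold change as a ratio of mean unlogged signals, and a t-test p-value. Its log2 signals, as deposited, equalled those of the value table.

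All 22119 probe sets were fitted with limma 3.58.1 in R 4.3.3 (lmFit, eBayes) for the difference between M1 and control, unfiltered, with Benjamini-Hochberg adjustment, and the fit was tested on simulated data. A gene was called at an adjusted p under 0.05. Standard errors come from this fit, with 3.11 prior degrees of freedom. Names were updated through accessions against RefSeq (GRCh38.p14), where 476 of 497 matched; TLR4 kept the name in the file. Promoters are RefSeq's. The number of arrays limits the precision.

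The members and lists were chosen with earlier results of these data known. Named were the 4 members, the listed genes in the table (the 6 largest for a longer list; CXCL3 and IL36G go beyond this and were added after their values were seen) and 3 nearest profiles per member. Alternatives were the replicate block, normalisation, filter, variance prior, array weights, an unequal-variance t statistic, a fold limit, unlogged means, Pearson correlation for likeness and each sample left out.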

Additional observations from a re-analysis of the deposited data

How the results depend on the processing

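The log2 differences of the 4 genes kept their sign under all 11 alternatives run on each. Because the groups did not overlap, leaving out a sample or taking unlogged means could not turn the sign. The replicate block could not move the difference in this balanced design. Without each sample in turn the difference ranged from -0.78 to -0.71 for TLR3, 1.32 to 1.52 for TLR4, 0.88 to 0.97 for MYD88 and 0.99 to 1.05 for TICAM1. Of 44 values, which include replicate-block values that a balanced design fixes, 40 moved by less than 1 SD between replicates. The others were quantile normalization, which gave -0.68 for TLR3, 1.03 for MYD88 and 1.11 for TICAM1, and median centring, which gave 1.07 for TICAM1. The median log2 difference of all probe sets moved from 0.0032 to 0.0644 on centring. The count of called probe sets, 7245, fell to 3864 with the unequal-variance t statistic, for which the cause was not tested, and to 2088 with the 1.5-fold limit, by construction. Without each sample in turn it was 5386 to 6763. With the replicate number as a block it was 5821. Deviations of same-numbered samples correlated at -0.123, -0.118 and -0.00108 and 0 of 6 samples correlated best with their own number. With 3 samples per group, this cannot show whether same-numbered samples were grown or handled together. Of the 3 nearest genes, Pearson correlation named 0 again for TLR3, 1 for TLR4, 0 for MYD88 and 1 for TICAM1, and median centring named the same 3 for each. Only selected genes carry names, so unlisted receptors and adaptors could not be followed.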
